A study of Sus scrofa with 207 samples.

Results

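The cytosolic ribosomal protein genes were described here in skeletal muscle of 207 pigs. They were taken as every gene whose symbol in the array annotation is RPL, RPS or RPLP followed by a number, with an optional letter, or RPSA, when a probe set carried that symbol alone. S6 kinase genes were left out. This gave 59 genes, 34 of the large and 25 of the small ribosomal subunit, among 6765 genes with a single symbol. The 59 genes were covered by 91 probe sets, and the probe set with the highest mean over all arrays stood for each gene. Each of the 59 was found in the reference gene table under its gene number, with an unchanged symbol.

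Muscle of commercial crossbred animals labelled Pix(DLxDE), slaughtered at 110 kg on average, was hybridised to 1 Affymetrix porcine array for each animal. The labels place all animals in 1 group, name no treatment and give a pair of carcass traits. Drip loss, the percentage of weight that longissimus samples lost between 24 h after death and the end of 48 h of hanging at 4 °C, averaged 5.37% ± 2.22 (SD, n = 207) and ran from 1.45% to 10.82%. Fat area over the longissimus at the 13th and 14th rib averaged 15.0 cm2 ± 3.15 (SD) and ran from 8.1 to 26.7 cm2 in the 207 animals less 8 without a value, which are left out of every fit with that trait. Sex, sire, slaughter day and array batch are not among the labels used here. Each array has its own title and trait values and was taken as a separate animal. Muscle fibre markers checked the tissue: the mean log2 value of 9 measured markers lay between 13.6 and 13.8 in every animal.

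A ribosome joins a small subunit, which reads the messenger RNA, to a large subunit, which forms the peptide bond. Each subunit is an assembly of ribosomal RNA with many proteins that are needed in near equal numbers. Vertebrate ribosomal protein messenger RNAs share a terminal oligopyrimidine tract at the 5′ end, through which the kinase mTOR sets how strongly they are translated, and the genes for many translation factors carry the same feature. In muscle the supply of ribosomes is one determinant of the capacity for protein synthesis and growth.

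Most of the 59 probe sets that stood for a gene were among the brightest on the array. Of the 59, 50 belonged to the 239 probe sets with the highest means (the top 1% of 23935 tested), and 53 had a mean log2 value of at least 12. Each had been picked as the brightest of its gene, so these counts were set in part by that choice. Of the 32 further probe sets of the same genes 8 were dim, as defined next. The scale has a floor at 4, and the highest value of any probe set was 15.32. A probe set is called dim here when its mean is below the median of all tested probe sets, 6.10. The dim members were 3, RPL26 (mean 5.02 ± 0.19, SD), RPL30 (4.69 ± 0.26) and RPS15A (5.57 ± 0.25), and a low signal there shows only what those probes caught. The members varied little between animals. Over the 56 that were not dim the SD had a median of 0.159 log2 units, from 0.079 for RPS28, a small subunit protein near the messenger exit, to 0.39 for RPL17, a protein around the peptide exit that was picked after its values were seen. Small SDs were not particular to the members. Among the muscle fibre markers, which are bright too, the SD ran from 0.038 (CKM) to 0.22 (DES). RPS28 also had the highest mean signal of the members (13.64). Whether a signal near the top of the scale held down the SD was not tested. Levels are not compared between genes, since each probe set has its own response. By their names, the probe sets of RPL27, RPS27L and RPS28 hold probes shared with other genes, so their signal cannot be given to 1 gene with certainty; 6 others are shared by transcripts of 1 gene and 50 carry no such mark.

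The ribosomal protein genes varied together from animal to animal. Over the 1711 pairs of members the median Pearson correlation was 0.615 (Spearman 0.612), and 63.4% of pairs exceeded 0.5. Among all pairs of the 6765 genes the median was 0.0059 and 1.43% exceeded 0.5. The other genes with a mean of at least 12, a limit chosen after the data were seen, had a median of 0.167 among themselves. All correlations are over the same 207 arrays, so the points share each array's RNA, labelling and scaling, and no test is attached to these medians. The size changed with the normalization. After quantile normalization, which forces all arrays to the same distribution, the median was 0.305 for the members, 0.034 for the other bright genes and 0.0034 for all genes. That step can remove a shift shared by the brightest probe sets as well as a difference in scaling. Which of these it removed here was not tested.

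**Figure D1:**
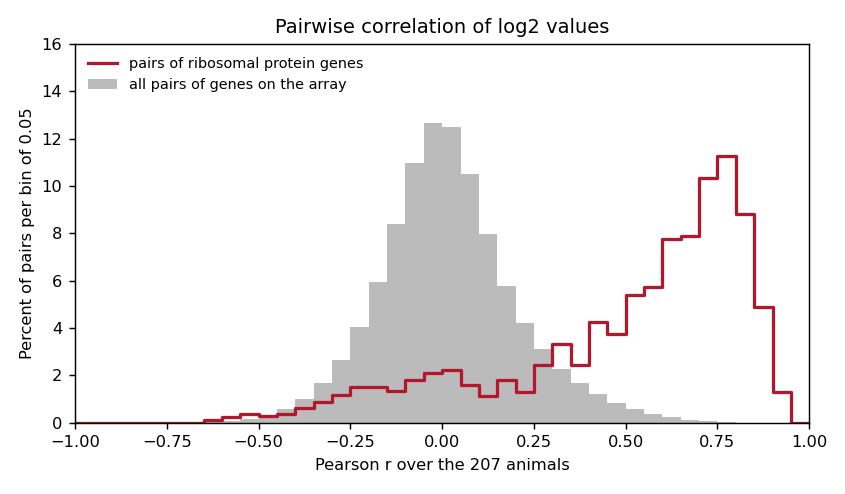
Percent of gene pairs (y axis) by Pearson r of their log2 values over 207 animals (x axis, bins of 0.05), for all pairs of genes (grey bars) and for the 1711 pairs of ribosomal protein genes (red line). The member pairs peak between 0.75 and 0.80, with a median of 0.615, while all pairs are centred near 0.

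A single axis held most of the variation. The first principal component of the 59 genes carried 60.7% of their variance, with 55 of 59 loadings of 1 sign, and the second carried 8.97%. The mean of the members had a lowest value of 12.07, a median of 12.47 and a highest of 12.77, an SD of 0.122 over animals, so the extreme animals differed by 1.63-fold. After quantile normalization it ran from 12.27 to 12.66 with an SD of 0.071, a 1.31-fold range. RPL12, which lies at the base of the stalk where elongation factors dock, followed the mean of the other members most closely (r = 0.936). RPL32 (0.925), RPS27A, which is made as a fusion with ubiquitin (0.923), RPL35 (0.922) and RPL24 (0.922) came next, with nearly equal values. In all, 43 of 59 members had an r above 0.7 with the mean of the others, and 20 did after quantile normalization.

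**Figure D2:**
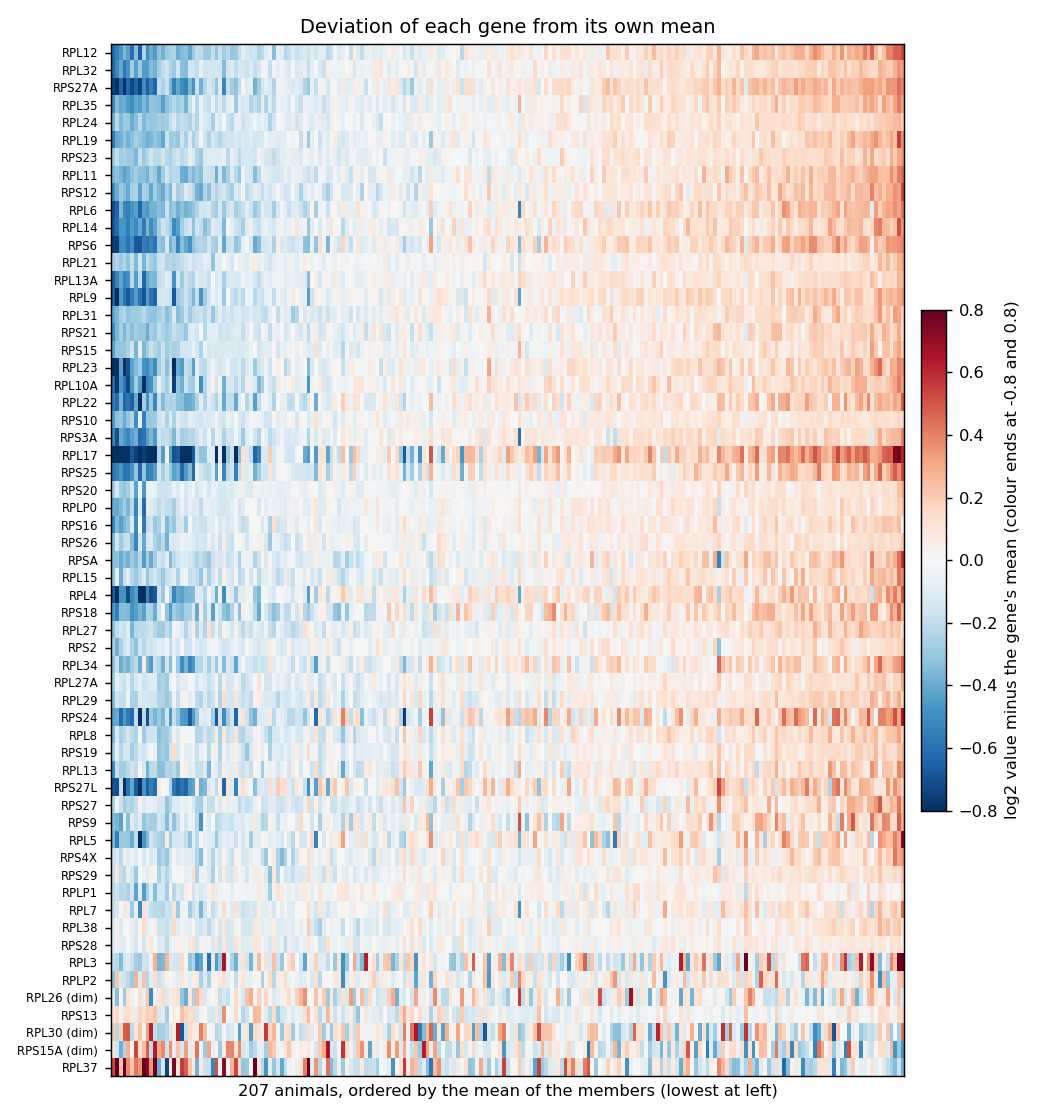
Log2 value minus the gene's own mean (colour, ending at -0.8 and 0.8) for 59 ribosomal protein genes (rows, ordered by r with the mean of the others) in 207 animals (columns, ordered by the member mean). Nearly all rows turn from blue to red from left to right; RPL3, RPLP2, RPS13, the 3 dim genes and RPL37 at the bottom follow that order least, and RPL37 runs against it.

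Large and small subunit genes were not set apart by their variation. The median correlation was 0.613 within the large subunit, 0.623 within the small subunit and 0.618 between them. The mean of the 34 large subunit genes had an r of 0.969 with the mean of the 25 small subunit genes (Spearman 0.959), and 0.917 after quantile normalization. The difference between the subunit means had an SD of 0.031 over animals, against 0.125 for the large and 0.120 for the small subunit mean. The closest pair of all crossed the subunits: RPL6 and RPS6, the S6 kinase substrate, had an r of 0.948. RPS27A with RPL17 reached 0.943, and RPL29 with RPL8, both of the large subunit, 0.926. RPL6, RPL17, RPL8 and RPL29 were picked after their values were seen.

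**Figure D3:**
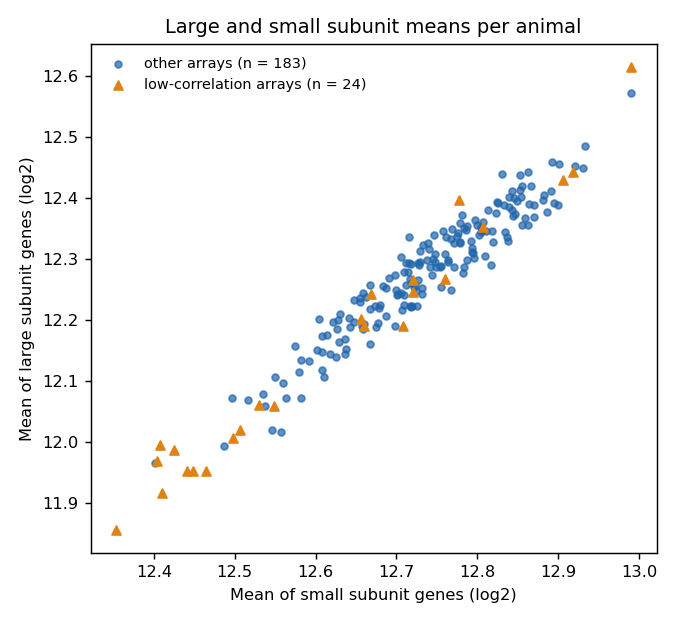
Mean log2 value of the 34 large subunit genes (y axis) against that of the 25 small subunit genes (x axis), 1 point per animal. Orange triangles mark the 24 arrays with a low correlation to the rest and blue points the others; both lie along the same line, and most of the triangles are at its lower end.

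Title numbers in the labels fall into 10 blocks of 100, whose meaning the labels do not give. Within blocks, of 10 to 35 animals, the median correlation of members ran from 0.420 to 0.732 and the r between the subunit means from 0.927 to 0.984. The median was above 0 in every block.

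A few members stood outside the common axis. RPL37, a zinc-binding large subunit protein, ran against it. Its probe set had a lowest value of 7.73, a median of 8.42 and a highest of 9.77, its r with the mean of the others was -0.446, and it correlated below 0 with 50 of 58 members. The lowest pair of all was RPL37 with RPL4 (r = -0.644), the latter picked after its values were seen. Its Spearman rho was -0.295, and after quantile normalization r was -0.342. On the 24 arrays with a low correlation to the rest, described with the array properties, RPL37 averaged 8.79 ± 0.49 (SD) against 8.43 ± 0.27 on the others, and without those arrays its r was -0.230. RPS13 had an r of -0.051 (13.05, 13.34 and 13.72 as lowest, median and highest value). RPLP2, a stalk protein that binds elongation factors, had 0.197 (11.69, 12.20 and 12.65), whereas its partners RPLP0 and RPLP1 had 0.834 and 0.596. RPL3, a protein near the peptidyl transferase centre, had 0.337, with a lowest value of 10.00, a median of 10.56 and a highest of 12.41. RPS28, the least variable member, had 0.442. The 3 dim members had 0.015 (RPL26), -0.136 (RPL30) and -0.289 (RPS15A). Which members stood outside depended in part on the normalization. After quantile normalization r was -0.379 for RPS13, 0.256 for RPLP2, 0.375 for RPL3 and 0.101 for RPS28, and -0.019, -0.167 and -0.255 for the 3 dim members in the same order. On that scale RPS29 (0.021), RPL38 (0.020) and RPS4X (0.132) were near 0 as well, against 0.605, 0.535 and 0.619 in the deposited values; RPL38 was picked after its values were seen.

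Some well-known members, several of them with roles outside the ribosome, followed the axis to differing degrees. RPL5 and RPL11, which with 5S ribosomal RNA bind MDM2 when ribosome assembly fails, had an r of 0.640 and 0.910 with the mean of the others. RPS27L, a copy of RPS27 that p53 induces, had 0.716 and RPS27 had 0.688. RPSA, also known as the laminin receptor, had 0.818, RPS19, mutated in Diamond-Blackfan anaemia, 0.727, and RPS4X, encoded on the X chromosome, 0.619. The copies RPS27 and RPS27L had an r of 0.317 and a Spearman rho of 0.339 over 207 animals, each at p = 1e-05 by permutation, which is as small as 100000 permutations allow. That test is against an r of 0 and treats the animals as exchangeable, and the r of this pair was below the median of 0.615 over all member pairs. This was the only pair of near copies measured of the 4 listed. Without the 2 animals farthest from the RPS27 median r was 0.313, within the blocks of title numbers 0.268, and after quantile normalization 0.026 (permutation p = 0.71), so it did not pass on that scale.

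The genes outside the set that followed the member mean most closely, of 4828 that were not dim, were EEF1B2 (r = 0.932), which recharges elongation factor 1A with GTP, and RAN (0.913), the GTPase of nuclear transport. LOC100525692 (0.858), ZC3H10 (0.848), ATP5E (0.816), FAU (0.783), COX6C (0.770), SEC11C (0.753), FAM32A (0.740) and VAPA (0.740) completed the first 10, ranked by Pearson r over the 207 animals. FAU encodes a ubiquitin-like protein fused to a small subunit protein and falls outside the symbol rule. ATP5E and COX6C encode subunits of ATP synthase and cytochrome c oxidase. After quantile normalization EEF1B2 had an r of 0.798, RAN of 0.802 and FAU of 0.457 with the member mean. The median over the 4828 genes was 0.061.

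Array properties moved with the member mean. A set of 24 arrays had a median correlation with the other arrays more than 3 scaled MAD below the rest, and they held 10 of the 12 lowest member means. The member mean was 12.35 ± 0.193 there (SD, n = 24) and 12.47 ± 0.101 on the others, with overlapping ranges (12.07 to 12.77 and 12.15 to 12.75), and 48 of 59 members were lower on them. Drip loss was also lower there, 4.20% ± 1.55 against 5.53% ± 2.25. Without these arrays the median correlation of members was 0.607. The 2 control probe sets for 28S ribosomal RNA had an r of -0.466 and -0.351 with the member mean (Spearman -0.543 and -0.404), the 2 for 18S ribosomal RNA -0.412 and -0.212 (-0.482 and -0.205), that for 5S ribosomal RNA -0.235 (-0.206), and the spike-in signal -0.329 (-0.480). The 3′ minus 5′ signal of the actin and elongation factor controls, a sign of RNA length, had -0.082 (-0.032), and each array's median 0.119 (0.080). The part of these properties in the co-variation was not tested.

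Markers of other cell types were followed in the same way, and in whole muscle a change in cell composition and a change per cell cannot be told apart. The mean of 6 macrophage markers (6.10 to 8.81 over animals, 1 of the 6 dim) had an r of 0.511 with the member mean. Fibroblast markers (5 genes, 1 dim, 7.05 to 8.62) had 0.437 and adipocyte markers (6 genes, 2 dim, 7.36 to 8.75) 0.345. The pair of Schwann cell markers (6.90 to 9.39) had 0.523. Endothelial markers (7 genes, 1 dim, 7.06 to 7.87) had -0.294 and lymphocyte markers (10 genes, 9 of them dim, 5.03 to 6.20) 0.085. Blood markers (3 genes, 1 dim, 5.97 to 6.98) had 0.021, satellite cell markers (3 genes, 1 dim, 5.82 to 6.84) -0.134 and muscle fibre markers 0.087. Single markers of a list differed in sign. The r ran from -0.315 (LEP) to 0.488 (FABP4) for adipocyte, from -0.455 (ENG) to 0.049 (TEK) for endothelial and from -0.230 (ALAS2) to 0.338 (HBB) for blood markers. Their part in the co-variation was not tested.

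No ribosomal protein gene passed as higher with drip loss, and RPL30 passed as lower. Slopes give the log2 change for 1 SD of a trait, 2.22% for drip loss, from limma across all 23935 probe sets with Benjamini-Hochberg adjustment and a threshold of 0.05. Of all probe sets 4.61% passed for drip loss, 1.94% as higher and 2.67% as lower, and of the 59 members 1 did. Many of all probe sets are dim, unlike most members. With 1 probe set per gene in the fit, 7.6% of the 6765 genes passed and again 1 member. Of the other genes with a mean of at least 12, 26 passed as higher and 2 as lower in the main fit. RPL30, a large subunit protein, had a lowest value of 4.00, a median of 4.69 and a highest of 5.33. It fell by 0.094 ± 0.017 (SE) log2 per SD, adjusted p = 1.57e-04, which is a drop of 6.32% per SD. In the 51 animals with the lowest drip loss (1.45% to 3.49%) it averaged 4.84 ± 0.23 (SD), from 4.31 to 5.30. In the 51 with the highest (7.25% to 10.82%) it averaged 4.58 ± 0.24 (SD), from 4.00 to 5.10. These ranges overlapped for the most part, and all values of this probe set were near the floor of the scale. In the higher series of title numbers alone (33 animals) the slope was -0.107 with an adjusted p of 0.60. Of the 11967 dim probe sets 1.01% passed as lower.

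Most of the other slopes on drip loss were positive and small, and none passed. Slopes were positive in 51 of 59, against 53.7% of all probe sets, 61% of all genes and 70.1% of the other genes with a mean of at least 12. Their median was 0.018, against 0.0023 for all probe sets, 0.0080 for all genes and 0.015 for the other bright genes. An unadjusted p under 0.05 was found for 19 members, 17 higher and 2 lower (32.2%), against 19.3% of all probe sets (10.2% higher and 9.15% lower), 23.9% of all genes and 45.2% of the other genes with a mean of at least 12. The members' share thus lay above that of all genes and below that of the other bright genes. With the blocks of title numbers in the fit 1 member had one and 46 slopes were positive. Without the 24 low-correlation arrays it was 4 members and 46 slopes, and with both changes 27 of 59 slopes were positive. With the first 5 principal components as covariates 10 were. Fewer probe sets passed on the whole array too, against 4.61% without these changes. The share was 0.623% with the blocks, 0.831% without the low-correlation arrays, 0.355% with both and 0.0543% with the principal components. The share of all probe sets with an unadjusted p under 0.05 was not counted in these fits.

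RPL13A, which also acts as a silencer of inflammatory messenger RNAs, had the largest moderated t among the positive slopes. Its lowest value was 12.85, its median 13.55 and its highest 13.78, and its slope 0.031 ± 0.011 (adjusted p = 0.077 in limma). The adjusted p was 0.048 when only probe sets that were not dim were tested, where RPL30 is left out and RPL13A is the 1 member of 56 that passes, against 10.6% of the 11968 probe sets in that fit. RPL31 had a slope of 0.028 ± 0.011 (adjusted p = 0.120), RPS27L of 0.044 ± 0.018 (0.136), RPS18, at the head of the small subunit, of 0.035 ± 0.015 (0.148), and RPS21 of 0.024 ± 0.010 (0.164). In the 51 animals with the lowest drip loss RPS27L averaged 11.21 ± 0.27 (SD), from 10.44 to 11.60, and in the 51 with the highest 11.33 ± 0.14, from 10.99 to 11.63. The first range was wider at its lower end and held all of the second except its top. On the negative side RPL37 had a slope of -0.045 ± 0.022 (adjusted p = 0.243), RPS15A of -0.032 ± 0.017 (0.289), RPL7 of -0.0070 ± 0.0094 (0.740) and RPS13 of -0.0068 ± 0.0086 (0.723).

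Fat area was related to no member by this test. None of the 59 passed, against 0.121% of all probe sets (0.0460% as higher and 0.0752% as lower), and 0 had an unadjusted p under 0.05 in limma, against 7.07%. That count was 18 with the first 5 principal components as covariates and 8 with each array centred on its median, with none passing in either fit. Of all probe sets 0.38% and 0.113% passed in those fits, in the same order. Their share with an unadjusted p under 0.05 was not counted there, so these counts of members have no background. Slopes were positive in 54 of 59, with a median of 0.012 against -0.0018 for all probe sets and 0.0068 for the other bright genes. Positive slopes made up 46.1% of all probe sets and 74% of the other bright genes, and 46 of the 59 members had one after quantile normalization. RPS4X had the largest t (slope 0.018 ± 0.0095, adjusted p = 0.720), with values of 12.47, 12.81 and 13.24 as lowest, median and highest. RPL26, RPS19, RPS26 and RPS16 followed, with slopes from 0.016 to 0.026. RPL3 (-0.021 ± 0.022), RPL30, RPLP2, RPS29 and RPS18 were the 5 with negative slopes. The drip loss slope minus the fat area slope, fitted with both traits in 1 model, passed for 0 members against 0.347% of all probe sets. An unadjusted p under 0.05 was found for 2 members, both lower (RPL30 and RPL37), against 12.6% of all probe sets, of which 5.60% lower, and the lowest adjusted p was 0.186, for RPL30.

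**Figure D4:**
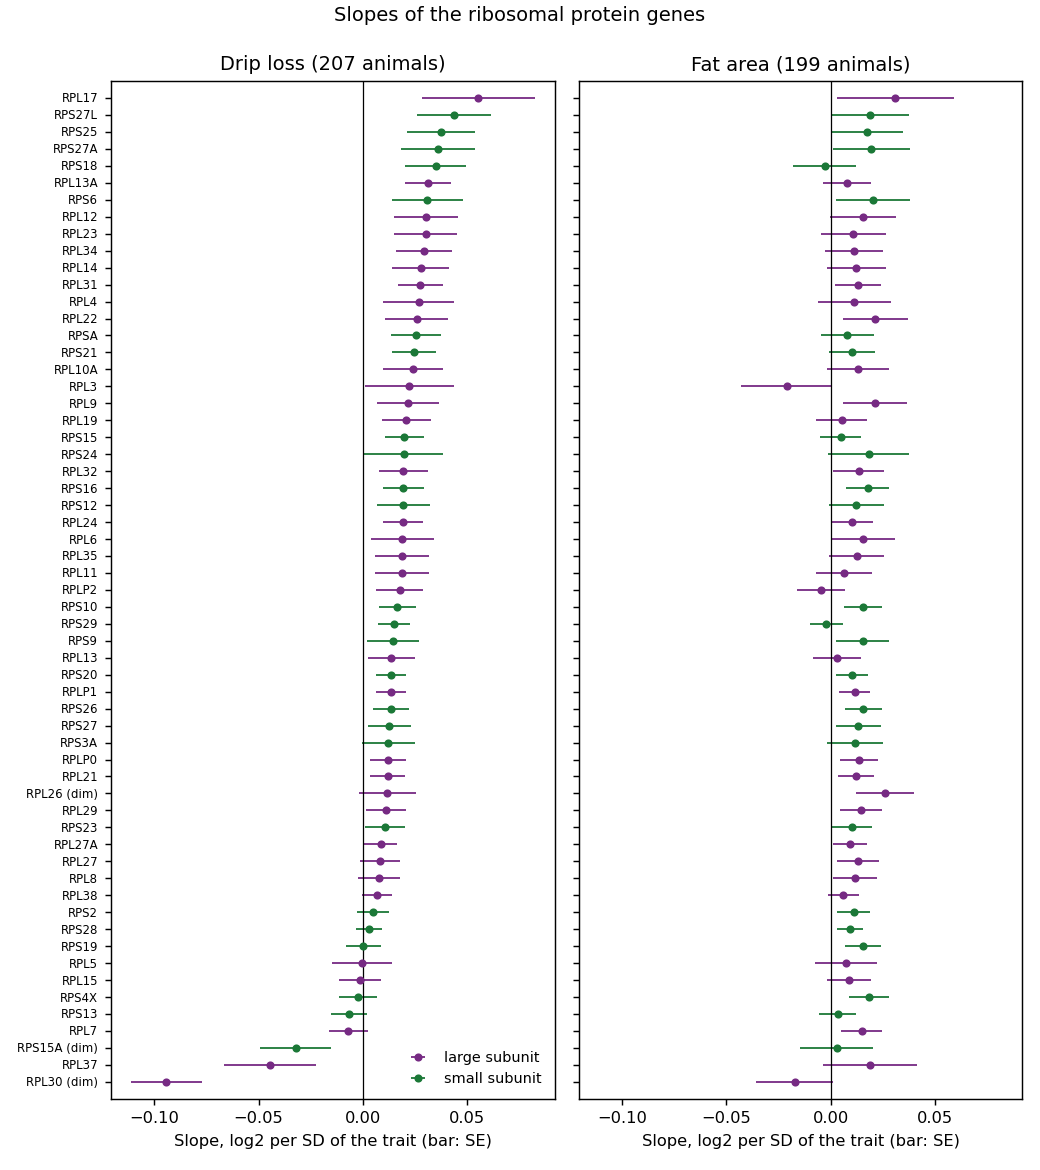
Slope of each of the 59 genes on drip loss (left, 207 animals) and fat area (right, the 207 less 8 without a value), as log2 change for 1 SD of the trait, with SE bars; purple marks the large and green the small subunit. On the left 51 points are right of 0 and RPL30 is lowest at -0.094; on the right 54 are right of 0 and none passes.

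As a whole the set moved by amounts near its own error. The member mean had a slope of 0.014 ± 0.0085 (SE) on drip loss and 0.011 ± 0.0088 on fat area. It was 12.44 ± 0.127 (SD) in the 51 animals with the lowest drip loss and 12.49 ± 0.095 in the 51 with the highest. The large minus small subunit difference had slopes of -0.0024 ± 0.0022 and -0.0012 ± 0.0022. Within the 10 blocks of title numbers the slope of the member mean on drip loss ran from -0.057 to 0.136, on both sides of 0.

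Neighbouring steps of protein synthesis were followed in 72 measured genes, of which 3 passed for drip loss (4.17%) and 0 for fat area. For drip loss 4.61% of all probe sets passed, but many of those are dim, unlike most of the 72. Of the probe sets that were not dim 3.24% passed as higher and 4.33% as lower. For drip loss 20 of the 72 had an unadjusted p under 0.05 (27.8%, against 23.9% of all genes), 8 higher and 12 lower. Of 20 translation factors and related genes with terminal oligopyrimidine messenger RNAs measured of 26 listed, 1 passed as higher and 0 as lower, 9 slopes were positive and the median was -0.0073. The one that passed was EEF1A1, which carries aminoacyl-tRNA to the ribosome (0.053 ± 0.011, adjusted p = 0.0022 in limma). Of 31 ribosome biogenesis genes of 37 listed, 1 passed, as lower: GNL3, a nucleolar GTPase (-0.062 ± 0.020, adjusted p = 0.048). Of 14 genes of growth control of 25 listed, 1 passed, as lower: MYC, a transcription factor that drives ribosome synthesis (-0.27 ± 0.050, adjusted p = 2.04e-04). Of 7 ribosomal protein paralogues and relatives outside the symbol rule 0 passed in limma and 1, RPL26L1, had an unadjusted p under 0.05. For fat area 6 of the 72 had an unadjusted p under 0.05 in limma (8.33%, against 7.94% of all genes), all higher. By their names, the EEF1A1 and MYC probe sets hold probes shared with other genes or transcripts, so their signal cannot be given to 1 gene with certainty. With the member mean, the list means had an r of 0.565 for the translation factors, 0.302 for biogenesis, -0.171 for growth control and 0.603 for the paralogues. NACA, which shields nascent peptides, ran against the members (r = -0.531), and AKT1S1, an inhibitor of mTOR, did too (-0.554). Both were picked after their values were seen. Among the 10 nearest genes, COX6C (0.056 ± 0.016, adjusted p = 0.022) and FAM32A (0.053 ± 0.015, adjusted p = 0.025) passed for drip loss, and EEF1B2 (0.0064 ± 0.011, adjusted p = 0.809) and RAN (0.030 ± 0.013, adjusted p = 0.161) did not.

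The further probe sets of the same genes often varied in another way than the brightest one. Of the 59 genes 24 had more than 1 probe set, which gave 32 further ones, 8 of them dim. Their r with the gene's brightest probe set had a median of 0.262, from -0.226 to 0.992, with 8 above 0.5 and 6 below 0. The brightest probe sets therefore do not stand for every probe set of a gene. A further probe set of RPL7, a large subunit protein, was 1 of 2 among all 91 that passed for drip loss, besides that of RPL30. It was dim (lowest 4.19, median 5.30, highest 6.32) and fell by 0.110 ± 0.021 log2 per SD (adjusted p = 3.90e-04 in limma), while the brightest RPL7 probe set had a slope of -0.0070. For fat area 0 of the 91 passed in limma and 1 had an unadjusted p under 0.05.

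Among the 32 further probe sets, 9 varied together in a pattern of their own. Grouped by average linkage at a mean r of 0.7, a limit chosen after the values were seen, they belonged to RPL6, RPL12, RPL13A, RPL17, RPL23, RPL24, RPL32, RPS6 and RPS28. Their r with each other ran from 0.612 to 0.924, with a median of 0.851 that was the same after quantile normalization and 0.852 within the blocks of title numbers. Their mean had an r of 0.217 with the mean of the 59 members, and each had an r with its own gene's brightest probe set between -0.080 and 0.558. In 8 of the 9 the array name shares its cluster number with the brightest probe set and differs in the letter A or S, by which Affymetrix marks the orientation of the cluster sequence. These 8 were all the probe sets of that kind among the 32. The mean of the 9 had a lowest value of 6.83, a median of 8.83 and a highest of 9.29. It left a gap between 8.13 and 8.32, with 27 animals below and 180 above, and 5 of the 27 were among the 24 low-correlation arrays. The 27 fell in 8 of the 10 blocks of title numbers and were not spread evenly over the blocks. The mean of the 9 had an r of 0.578 and 0.505 with the 2 controls for 18S ribosomal RNA, and of -0.261 and -0.069 with the 2 for 28S. Its r was -0.415 with the 3′ minus 5′ control signal and 0.261 with the spike-in signal. The part of these properties and of the blocks in the pattern was not tested. In limma 0 of the 9 passed for drip loss or fat area, and 0 had an unadjusted p under 0.05 for either.

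RPL38, a small protein of the large subunit picked after its values were seen, showed the widest gap of any of the 91 (0.83, the next widest being 0.23, with at least 10 animals on either side). Its further probe set lay at or above 10.64 in 49 animals and at or below 9.81 in all others, with no animal between. Its brightest probe set (lowest 12.72, median 12.98, highest 13.26) showed no such split, and the r between them was -0.044. The further probe set had a slope of 0.044 ± 0.053 on drip loss and -0.061 ± 0.053 on fat area, neither past the threshold (adjusted p = 0.705 and 0.877 in limma). Animals of the high cluster were found in all 10 blocks of title numbers.

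**Figure D5:**
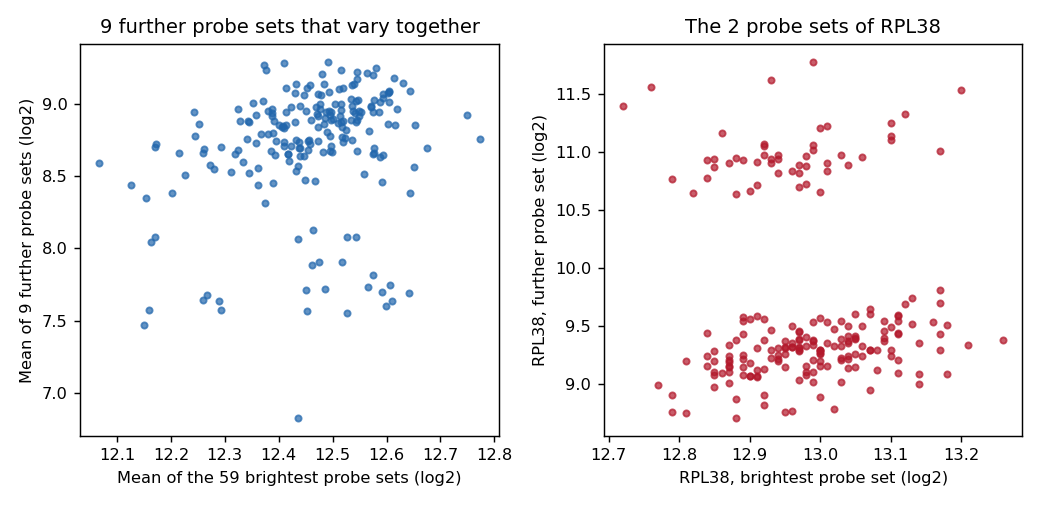
Left, mean of 9 further probe sets of 9 ribosomal protein genes (y axis) against the mean of the 59 brightest probe sets (x axis), log2, 1 point per animal (207). The 27 animals up to 8.13 on the y axis lie between 12.15 and 12.64 on the x axis. Right, the further (y axis) against the brightest (x axis) probe set of RPL38, log2; 49 animals form an upper cluster from 10.64 and the others a lower one up to 9.81.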

How the data were processed

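The values are log2 expression per probe set as deposited and were not renormalized. The submitters' processing notes name GCOS 1.1.1 and PLIER; scaling between arrays is not given in the sources used here. The values have a floor at 4, which holds 1.43% of them. Of 24123 probe sets 188 controls were left out. Gene names came from the array annotation: 10069 of the tested probe sets had 1 symbol, 198 several and 13668 none. A linear fit per probe set against each trait, divided by its SD, used limma 3.58.1 (R 4.3.3, lmFit and eBayes). The p-values were two-sided, with Benjamini-Hochberg adjustment across the 23935 tested. The fits were tested on simulated data with noise that was independent between probe sets and arrays. That test does not cover the variation that the arrays share here. Named members were those that passed, the 5 largest t in each direction per trait, the 5 highest and 5 lowest correlations among members not dim, and a list of well-known members, of which 2 (RPL3L, RPL10) were not analysed here. The members and lists were chosen with earlier results of these data known. Alternatives changed the normalization, filter, probe set choice, covariates, animals, trait scale and eBayes options. The number of arrays limits the precision.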

Additional observations from a re-analysis of the deposited data

How the results depend on the processing

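No paired analysis was possible because all animals form 1 group. Over the alternatives, 8 of the compared values moved by more than the spread, 2 were stronger and 3 weaker, all given here. Of the slopes of named members 1045 kept their side of the threshold, 2 were stronger and 1 weaker. A slope that passed in neither fit was counted among the 1045 even where its sign changed. The median correlation of members was 0.305 after quantile normalization and 0.370 with the mean of all probe sets per gene, where single probe sets of a gene differ as described. With that mean 2 members passed for drip loss (RPL30 and RPL7, the latter with -0.058 and an adjusted p of 7.80e-04 in limma). For the difference of the slopes 1 member passed. Of all 6765 genes 7.36% passed for drip loss in that fit and 1.8% for the difference. The slope of the member mean on drip loss was 0.0056 with blocks of title numbers, -0.0066 with 5 principal components, -0.0018 with blocks and without the low-correlation arrays, and 0.028 in the higher series of title numbers (33 animals). In that series 0 members passed for drip loss in limma, and 0 of all 23935 probe sets did. An unadjusted p under 0.05 was found there for 3 members, a count without a share over all probe sets. The large minus small subunit slope there was 0.0094 on drip loss and -0.0040 on fat area. The r of RPS27 with RPS27L was 0.177 in that series (permutation p = 0.33), and 0.026 in all animals after quantile normalization. The cause of these changes was not tested, and the higher series also had fewer animals. The adjusted p of RPL30 for drip loss ran from 4.95e-05 to 0.60. Signal limits the reading of the 3 dim members and of the 8 dim further probe sets.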
